A study of Mus musculus with 2 samples.

Results

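Genes of the gut endoderm were followed in the posterior part of mouse embryos that carry 1 intact copy of Cdx2 and no Cdx4, against wildtype embryos. The set holds 10 genes, chosen by their known role in endoderm and by log2 ratios of this same contrast seen in earlier results: Nepn, Trh, Spink1, Foxa1, Foxa2, Foxa3, Sox17, Pyy, Cpn1 and Ttr. They were found by gene name or accession among 26073 genes detected on the arrays. That count is of names, and it includes clone and transcript names. Because that contrast helped choose them, their values are a description and no test is attached to them.

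The mutant embryos were Cdx2+/-Cdx4-/-, and the others were wildtype. Both were taken at 13 somites and cut at a common axial level given by the youngest somite border, and tissue of 7 embryos was pooled for each genotype. Strain, sex and the structure of the alleles are not given in the sources used here. Array 1 carried the mutant pool in Cy5 and array 2 carried it in Cy3. The labels describe 1 pool per genotype and do not say whether the same extracts were labelled for both arrays. The arrays were therefore read as 1 comparison in both dye orientations, and on that reading the SD of 2 arrays given below is technical. In bulk tissue, fewer cells of a type and less RNA per cell cannot be told apart.

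The gut tube is lined by definitive endoderm, which is laid down at gastrulation and joined by cells of the visceral endoderm. Foxa factors are forkhead proteins that open chromatin at endoderm genes, and Sox17 is required for definitive endoderm to form. Cdx proteins are caudal-type homeodomain factors that drive posterior growth of the axis, and Cdx2 gives the later intestine its identity. Regional gut endoderm begins to express secreted products before organs form, and Nepn, a secreted leucine-rich repeat protein, is known in the mouse as a marker of the midgut.

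Nepn, Trh and Spink1 rose in the mutant pool, by 3.65-fold, 3.95-fold and 2.01-fold on the average of both arrays, and the other 7 genes did not pass the size rule. The rule asked for at least 1.5-fold in the same direction on each array, a log2 ratio of 0.58. None of the 10 genes fell. Over all detected genes 0.211% were higher and 0.23% were lower by this rule (55 and 60 of 26073). The genes were chosen with this contrast in view, so nothing is read from the count of 3 of 10. The gene just inside the rule was Spink1, whose smaller log2 ratio was 0.94, and the one just outside was Foxa2, at 0.26. As a check of the labels, the targeted gene Cdx4 had scanned mean signals of 199 and 177 in the mutant pool and 686 and 1295 in the wildtype pool. The mean log2 ratio of Cdx4 was -2.52 ± 0.12, while Cdx2 had -0.05 ± 0.09 and Cdx1 had 0.19 ± 0.09. The sources used here do not say whether these probes lie in the altered part of each allele.

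**Figure D1:**
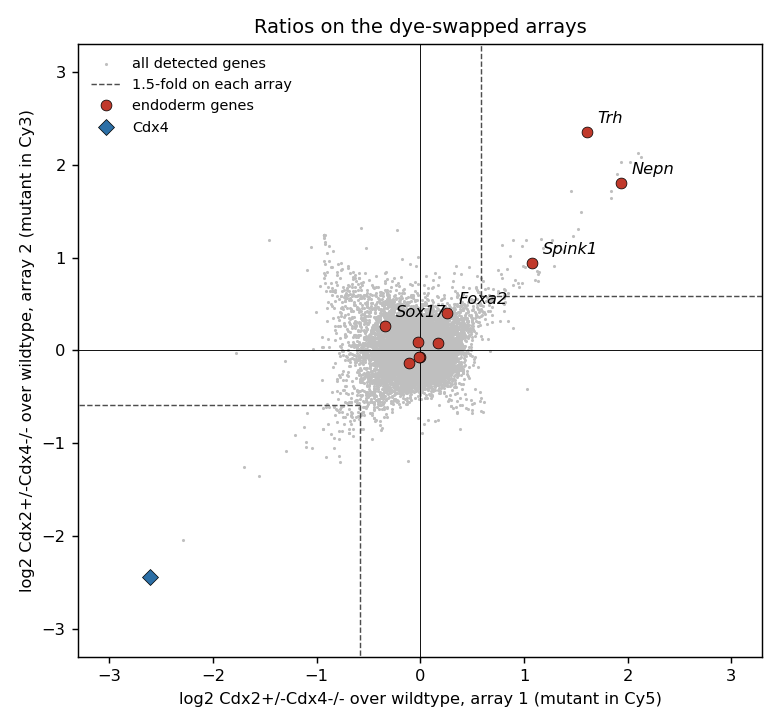
Each point is a gene, with the log2 ratio of the mutant over the wildtype pool on array 1 (horizontal) and on array 2 (vertical). Grey points are all 26073 detected genes, red points the 10 endoderm genes, the blue diamond Cdx4, and dashed lines the 1.5-fold rule. Trh, Nepn and Spink1 lie in the upper right corner, and the other 7 lie in the central cloud.

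The windows before the transcription start of Nepn and Trh are shown because these were the endoderm genes with the largest ratios here. The sequences are the 250 bases upstream of the start in RefSeq, build GRCm38.p6, at chr10:52391358-52391607 on the plus strand for Nepn and chr6:92244651-92244900 on the minus strand for Trh. Capitals mark TTTAT, the core that caudal-type homeodomain proteins bind, or its reverse complement.
Nepn: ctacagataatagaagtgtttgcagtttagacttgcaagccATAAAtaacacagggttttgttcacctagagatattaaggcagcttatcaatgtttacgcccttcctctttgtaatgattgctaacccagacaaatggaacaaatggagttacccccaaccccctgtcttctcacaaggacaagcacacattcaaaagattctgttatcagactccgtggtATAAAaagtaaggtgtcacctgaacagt
Trh: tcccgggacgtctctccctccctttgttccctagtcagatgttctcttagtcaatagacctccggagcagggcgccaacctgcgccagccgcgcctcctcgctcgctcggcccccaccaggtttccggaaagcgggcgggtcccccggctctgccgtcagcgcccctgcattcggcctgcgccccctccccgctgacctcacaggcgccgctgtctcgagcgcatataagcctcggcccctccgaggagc
The Nepn window held 2 matches, both on the reverse strand, beginning 209 and 28 bases before the start. The match at 28 overlaps a TATA box (TATAAA), so its letters belong to both motifs. The Trh window held none, and across all 32851 windows of this length 37.3% held at least 1. The forkhead core TGTTTNC, searched on both strands, occurred 2 times before Nepn and not before Trh, against 17.8% of all windows with at least 1. The Sox core ACAAT was in neither, against 27.7% of all windows. Windows of 7 of the 10 genes were searched, and Spink1, Sox17 and Ttr were left out. Among the 5 searched besides Nepn and Trh, TTTAT occurred once before Foxa3 and once before 1 of 3 starts of Foxa2. Each time it overlapped the letters TATAAA. For Foxa3 TATAAA lay on the forward strand, 36 bases before the start. For Foxa2 it lay on the reverse strand, 208 bases before the start. Among these 5 the forkhead core occurred 1 time before Foxa1 and 2 times before Cpn1. A match is a description of letters, and a window without one says nothing of the factor.

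The secreted products come first. Nepn is listed in the files as 5730521E12Rik, and its single probe lies on chromosome 10 from 52446331 to 52446390 in the files' coordinates, whose build they do not name. The scanned mean signal of Nepn was 629.5 on array 1 and 362 on array 2 in the mutant pool, against 150.5 and 179 in the wildtype pool. After background correction and normalisation, signals of Nepn were 469.9 and 407 in the mutant pool and 123 and 117 in the wildtype pool. The mutant signals were both far above the wildtype signals. The wildtype signals were low but above the medians of the negative control spots, which ran from 56.2 to 64.7 over the channels, although the brightest such spot reached 140.0 in the wildtype channel of array 1. The log2 ratio of Nepn was 1.93 on array 1 and 1.80 on array 2, a mean of 1.87 ± 0.09 (SD of 2 arrays). Genes of like brightness, within 0.25 log2 units, had a pooled SD between arrays of 0.15, and 2 of these 2460 genes had a higher mean ratio than Nepn.

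Trh encodes the precursor of thyrotropin-releasing hormone, a peptide best known from the hypothalamus. The Trh probe lies on chromosome 6 from 92596290 to 92596347 in the files' coordinates. Trh had a scanned mean signal of 691 on array 1 and 402 on array 2 in the mutant pool, against 186 and 146 in the wildtype pool. Normalised signals of Trh were 513 and 455 in the mutant pool and 168 and 89.0 in the wildtype pool. The pools did not overlap, and the wildtype values differed more between arrays, in proportion, than the mutant values. Its log2 ratio was 1.61 on array 1 and 2.35 on array 2, a mean of 1.98 with an SD of 0.53, against a pooled SD of 0.15 for genes of like brightness. The direction of the Trh difference was the same on both arrays, and with loess its ratios differed more between arrays than those of Nepn.

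Spink1, named Spink3 in the files, encodes a secreted Kazal-type inhibitor of trypsin that is abundant in the pancreas. The probe used lies on chromosome 18, which is also the chromosome of the gene, but carries no RefSeq accession and was named through a synonym. Spink1 had a scanned mean signal of 486 and 237 in the mutant pool, against 188.5 and 183 in the wildtype pool. Normalised signals of Spink1 were 356 and 237 in the mutant pool and 169 and 124 in the wildtype pool, again without overlap. The log2 ratios of 1.08 and 0.94 gave a mean of 1.01 ± 0.10, so Spink1 passed the 1.5-fold rule on each array but not a 2-fold rule on array 2.

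A second probe also bears the name Spink3, and its ratio lay near 0. It lies on chromosome 16 from 32251351 to 32251410 in the files' coordinates, and its accessions match both Spink1 and Ubxn7, a gene of chromosome 16. Its normalised signals were 100.4 and 94.4 in the mutant pool and 102 and 96.0 in the wildtype pool, with log2 ratios of -0.03 and -0.02. Because it matched several genes it was given no gene name, and the Spink1 value rests on the chromosome 18 probe alone.

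**Figure D2:**
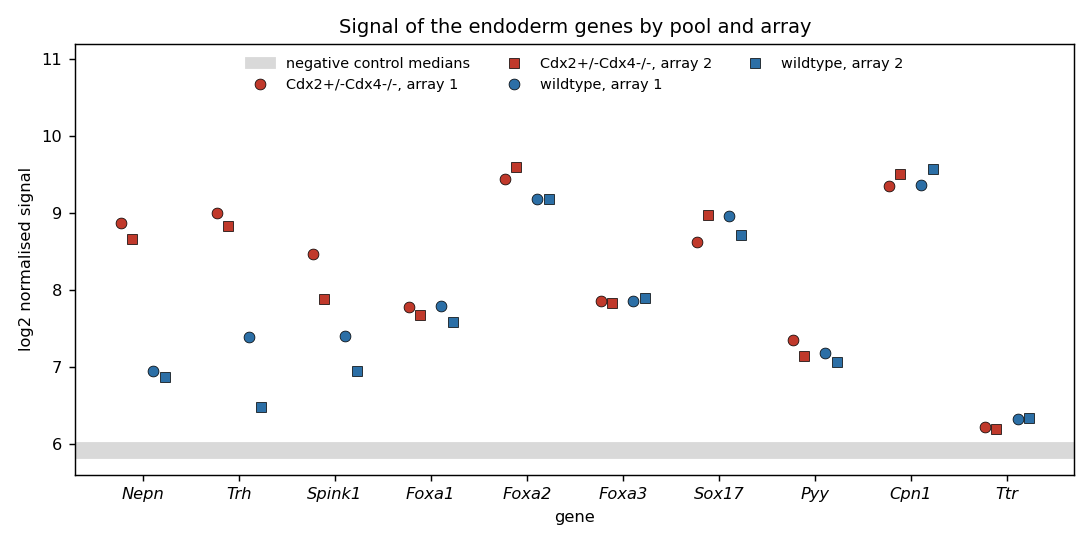
Normalised signal on a log2 scale (vertical) of the 10 endoderm genes (horizontal), in the mutant pool (red) left of the wildtype pool (blue), with circles for array 1 and squares for array 2. The grey band spans the medians of the negative control spots in the 4 channels. Nepn, Trh and Spink1 are separated between pools, while Ttr lies just above the band; each gene has its own probe, so heights of different genes are not comparable.

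Pyy encodes peptide YY, a hormone of enteroendocrine cells, and its probe is placed on chromosome 11 from 101778421 to 101778868. Pyy had normalised signals of 163 and 141 in the mutant pool and 146 and 134 in the wildtype pool. These overlapped across arrays, although the mutant value was the higher one on each array. Its mean log2 ratio of 0.12 ± 0.06 lay below the pooled SD of 0.18 for genes of like brightness. Cpn1 encodes the catalytic chain of carboxypeptidase N, a plasma enzyme that trims basic residues from peptides, and its probe lies on chromosome 19 from 43323022 to 43323080. Cpn1 had 654 and 731 in the mutant pool, against 660.3 and 766 in the wildtype pool, and a mean log2 ratio of -0.04 ± 0.04. Cpn1 was flagged well above background in both pools on both arrays.

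Ttr encodes transthyretin, a carrier of thyroid hormone made by visceral endoderm, liver and choroid plexus. Its normalised signals of 74.5 and 73.3 in the mutant pool and 80.3 and 80.7 in the wildtype pool lay close to the medians of the negative control spots given above. Ttr was the only one of the 10 genes not well above background in all 4 channels. It missed that flag in the wildtype channel of array 1. The log2 ratio of Ttr, -0.12 ± 0.02, was alike on both arrays but is a value at the edge of detection, and the scanner software's ratios for it were 0.57 and -0.38.

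The transcription factors had ratios closer to 0. In the files' coordinates their probes lie on chromosome 2 from 147799425 to 147799484 for Foxa2, on chromosome 12 from 52744559 to 52744618 for Foxa1, on chromosome 7 from 10546069 to 10546128 for Foxa3 and on chromosome 1 from 4508095 to 4508154 for Sox17. Foxa2, expressed in endoderm, notochord and floor plate, had normalised signals of 695 and 775 in the mutant pool and 580.2 and 584 in the wildtype pool. Both mutant values of Foxa2 were higher, and its mean log2 ratio was 0.33 ± 0.10, or 1.26-fold, short of the size rule. Of 1149 genes of like brightness, 27 had a higher mean ratio, and their pooled SD between arrays was 0.14. Foxa1, which overlaps with Foxa2 in gut endoderm, had 219 and 205 in the mutant pool and 223 and 193 in the wildtype pool, with a mean log2 ratio of 0.03 ± 0.08. Foxa3, a forkhead factor of the developing gut and liver, had 231 and 227 in the mutant pool, against 232 and 239.5 in the wildtype pool, and a mean log2 ratio of -0.04 ± 0.05. The mean ratios of Foxa1 and Foxa3 lay within the pooled SD of 0.15 for genes of their brightness.

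Sox17 had no settled direction. Normalised signals of Sox17 were 395 and 504 in the mutant pool and 499 and 422 in the wildtype pool, so the pools overlapped. Its log2 ratio was -0.34 on array 1 and 0.26 on array 2, an SD of 0.42 against a pooled 0.14 for genes of like brightness. The Cy3 channel was the brighter one on both arrays after loess normalisation, whichever pool it held. The mean of -0.04 is therefore given without a direction.

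Across the set, 5 of the 10 genes lay above 0 on both arrays, 3 lay below 0 and 2 split. Of all detected genes, 23.3% lay above 0 on both arrays and 24.4% below. The 5 were Nepn, Trh, Spink1, Foxa2 and Pyy. The median log2 ratio of the 10 genes was 0.08, against 0.00 for all detected genes. The genes were chosen with this contrast in view, so nothing is read from these counts or this median. For 6 of the 10 the mean log2 ratio was smaller in size than the SD of 0.19 pooled over all genes. Trh, Nepn and Spink1 held ranks 5, 7 and 25 from the highest mean ratio of all detected genes, and Foxa2 held rank 300. No endoderm gene was saturated.

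**Figure D3:**
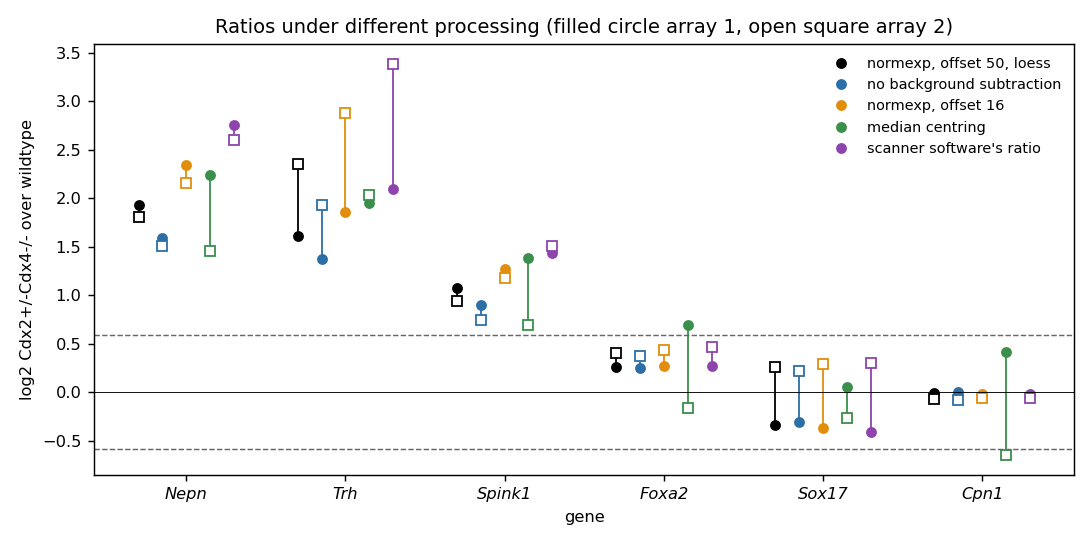
Log2 ratio of the mutant over the wildtype pool (vertical) for 6 endoderm genes (horizontal) under 5 ways of processing the scanned signals. Filled circles are array 1, open squares array 2, lines join the arrays, and dashed lines mark 1.5-fold. Nepn, Trh and Spink1 lie above the upper dashed line throughout, while their size and the gap between arrays change.

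The size of these ratios differed between ways of processing. The mean log2 ratio of Nepn was 1.55 without background subtraction, 2.25 with an offset of 16 and 2.68 by the scanner software's ratio, which differs in both background treatment and normalisation. The same settings gave 1.65, 2.37 and 2.74 for Trh and 0.82, 1.23 and 1.47 for Spink1. Centring each array on its median in place of loess left the means at 1.84 for Nepn, 1.99 for Trh and 1.04 for Spink1. With that centring the arrays gave 2.23 and 1.45 for Nepn and 1.95 and 2.03 for Trh, so the gap between arrays widened for Nepn and closed for Trh. Foxa2 then had 0.69 and -0.16, and Cpn1 had 0.42 and -0.65, so that only the average of both dye orientations was near the loess value.

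Other genes of the endoderm were read from lists that hold none of the 10 genes. Of 17 regulators and ligands of endoderm, all were detected and none passed the size rule, with a median log2 ratio of -0.05. Gata5, a zinc finger factor of heart and gut endoderm, had -0.32 ± 0.12, and Prox1, a homeodomain factor of liver and pancreas, had 0.32 ± 0.00. A second, dimmer probe of each was detected, with -0.23 and -0.09 for Gata5 and 0.07 and -0.14 for Prox1. The Prox1 value thus rests on 1 of its probes. Of 17 epithelial genes, 16 were detected and none passed, with a median of -0.01. The keratin gene Krt7 had 0.33 ± 0.15 and the membrane protease gene St14 had -0.28 ± 0.05. Dimmer detected probes had means of 0.29 and -0.02 for Krt7 and 0.07 for St14, so probes of both genes differed. Genes of both lists were thus detected in the tissue, and the medians of the lists lay near the median of all genes, 0.00. In bulk tissue these signals need not come from gut endoderm, and Gata5 is also a factor of heart.

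Regional gut genes were read in the same way. In the foregut list Sox2, a factor of foregut and of neural progenitors, was the 1 of 8 detected genes that rose, at 1.75-fold, and Nkx2-6, a homeodomain gene of pharyngeal endoderm, had 0.23 ± 0.04. With median centring Sox2 had log2 ratios of 1.11 and 0.39 and no longer passed the rule on array 2. None of the 8 detected genes in the list for midgut, liver and pancreas passed, with a median of 0.01, and Mnx1, a homeodomain gene of pancreas, notochord and motor neurons, had -0.49 ± 0.03. In the list for hindgut and ParaHox genes, Cdx4 was the 1 of 10 that fell, and Hoxd13, a marker of the caudal end, had -0.57 ± 0.34. The medians of the foregut and hindgut lists were 0.03 and -0.01.

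**Figure D4:**
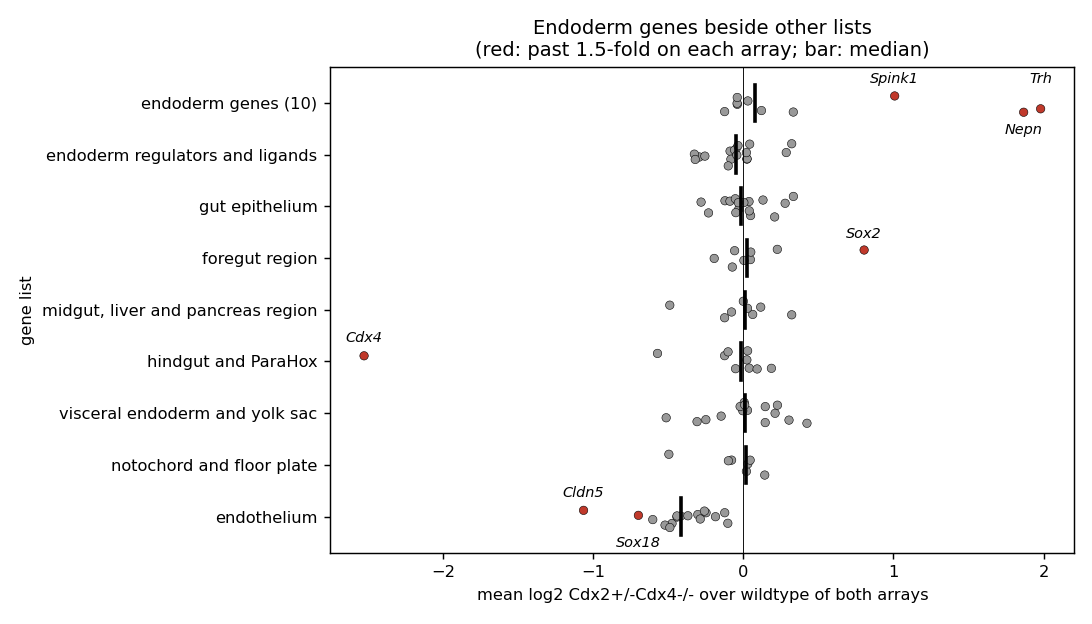
Mean log2 ratio of both arrays, mutant over wildtype (horizontal), of the detected genes in 9 lists (rows), with a black bar at each list's median. Red points passed 1.5-fold on each array and are named, and points are spread vertically only for legibility. The 10 endoderm genes have a median of 0.08 with Spink1, Nepn and Trh far to the right, and the endothelial list has a median of -0.42.

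Some of the 10 genes are also expressed by other tissues in the dissected part, so markers of those tissues are given beside them. Of 18 visceral endoderm and yolk sac genes, 15 were detected and none passed (median 0.01), with Amn, a subunit of the receptor that takes up vitamin B12, at 0.42 ± 0.07 and Rhox5, an X-linked homeobox gene, at -0.51 ± 0.09. The summed normalised signal of the visceral endoderm list was 8617 and 9244 in the mutant pool and 10181 and 10793 in the wildtype pool. Cited1, a transcriptional coregulator with a log2 ratio of -0.31 ± 0.03, made up 60.6% to 65.7% of that sum, and without it the sums were 3393 and 3428 in the mutant pool and 3618 and 3706 in the wildtype pool. Apoa1, Apoa4 and S100g did not reach detection, and Apoa1 was well above background in none of the 4 channels. Among notochord and floor plate genes, which bear on Foxa2 and Foxa1, none of 7 detected passed (median 0.02). In that list T, the brachyury gene of notochord and tail bud, had -0.49 ± 0.03 and Sox9 had 0.14 ± 0.44. The summed signal of the notochord list was 6297 and 6998 in the mutant pool and 8462 and 9069 in the wildtype pool, and Nog did not reach detection. T made up 76.8% to 84.0% of that sum, and without it the sums were 1338 and 1626 in the mutant pool and 1357 and 1624 in the wildtype pool. In the endothelial list, which bears on Sox17, all 17 detected genes lay below 0 on both arrays, against 24.4% of all genes. Its median was -0.42, and 2 genes fell, Cldn5 (2.09-fold) and Sox18 (1.62-fold). On array 1 Sox18 narrowly missed the rule without background subtraction (-0.58), and it missed it with median centring (-0.27). Summed endothelial signal was 10278 and 9546 in the mutant pool and 14515 and 13159 in the wildtype pool, and Erg did not reach detection. Egfl7, a secreted endothelial protein gene with a log2 ratio of -0.44 ± 0.08, made up 50.8% to 53.6% of that sum, and without it the sums were 4782 and 4431 in the mutant pool and 6769 and 6473 in the wildtype pool. What part these tissues have in the values of Foxa2, Sox17 and Ttr was not tested.

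Relatives and partners of the secreted products did not pass the size rule with normexp, an offset of 50 and loess. Among small leucine-rich repeat proteins, the family of Nepn, 10 of 14 were detected, with a median of -0.02. Lum, a collagen-binding member, came closest, at 0.80 on array 1 and 0.56 on array 2, and Bgn had -0.40 ± 0.21. Lum passed the rule with an offset of 16 (0.92 and 0.68), with the scanner software's ratio (a mean of 0.91) and on array 1 alone. Of 14 genes for the processing and reception of peptide hormones, including receptors for the products of Trh and Pyy, 12 were detected and ranged from -0.17 to 0.21. The 2 that did not reach detection, Npy2r and Npy5r, are both receptors for peptide YY. Within that list the carboxypeptidase gene Cpe had 0.21 ± 0.25 and the convertase gene Pcsk1 had 0.17 ± 0.10. Of 11 serine proteases, Kazal inhibitors and carboxypeptidases, 8 were detected, with Cpm at -0.38 ± 0.02 and Cela1 at 0.15 ± 0.19. Of 8 genes of thyroid hormone transport and reception, 5 were detected. The retinol carrier Rbp4, the partner of transthyretin in plasma, had 0.31 ± 0.37. The receptor gene Thra had -0.18 ± 0.08, while a second, dimmer Thra probe had a mean of 0.02.

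Genes with the most similar pair of ratios were found by Euclidean distance over the 2 arrays among 15467 named genes. Nearest to Nepn were Arg1 (distance 0.11), which encodes arginase, Cer1 (0.12), which encodes a secreted antagonist of Nodal and BMP, and Pcdh8 (0.23), which encodes a protocadherin. Nearest to Trh were Pcdh8 (0.46), Tcf15 (0.52), which encodes a paraxial mesoderm factor, and Arg1 (0.54). Spink1 lay nearest to Cytl1 (0.04), Gdf10 (0.09) and Col26a1 (0.09), which encode a small secreted protein, a TGF-beta family ligand and a collagen. With 2 arrays of the same pools this is likeness in size of ratio only, and it changed with the processing. By the scanner software's ratio, Nepn had a mean of 2.68, against 3.05 for Arg1, 3.70 for Cer1 and 4.05 for Pcdh8. With an offset of 16 these means were 2.25, 2.39, 2.49 and 2.74, and with median centring 1.84, 1.94, 1.80 and 2.05. By the software's ratio Trh had 2.74 and Tcf15 2.44, while Spink1 had 1.47, Cytl1 1.55, Gdf10 1.53 and Col26a1 1.12.

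Neighbouring genes on the chromosome were read for the 3 genes that rose. None of the 10 nearest detected coding genes of Nepn passed the size rule, 5 on each side, and their mean log2 ratios ran from -0.28 to 0.10. None of the 10 around Spink1 passed either, with a range from -0.27 to 0.21. Around Trh, Lrig1, a membrane regulator of growth factor receptors, rose (log2 ratios 1.13 and 0.82), and Fgd5, an exchange factor known from endothelium, fell (-0.78 and -0.64). The other 8 of the 10 around Trh did not pass, and the starts of Lrig1 and Fgd5 lie 2362 kb and 263 kb from that of Trh in GRCm38.p6.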

How the data were processed

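The labels' protocols describe RNA of 1 pool of 7 embryos per genotype on 2 dye-swapped dual-colour arrays. Per the file headers, the deposited intensity values give each spot's average brightness for either dye, and the median around it, uncorrected. Per the file headers, the deposited log10 ratios set Cy5 over Cy3 once the software had detrended the background and applied LOWESS. Version 9.5.3 of Agilent Feature Extraction is in the submitters' processing notes and 7.5.1 in the file headers.

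Signals were corrected with normexp (offset 50) and loess within arrays in limma 3.58.1 (R 4.3.3). All gene spots entered the normalisation, and 205 and 90 non-uniform gene spots were left out afterwards. Ratios were turned to mutant over wildtype and converted to log2. The offset shrinks ratios of dim genes. Normalised signals also had Aquantile scaling and include the offset. Detected means flagged well above background in 1 genotype on both arrays. The brightest detected probe stood for a gene. Median scanned signals were 159 and 146 in the mutant channel and 149.7 and 155 in the wildtype channel, and the number of arrays limits the precision. Names came from a RefSeq table of GRCm38.p6, with 19429 of 41013 probes named by accession, 3624 by symbol and 2908 by synonym. The 556 probes that matched several genes were given no current symbol. A further 14496 probes kept the name given on the array. Detected genes therefore include clone and transcript names, and shares and ranks over all detected genes count such names.

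The members and the 13 lists were chosen with earlier results of these data known. Genes named were the 10 members, the Cdx genes, each list's genes past the size rule or its 2 largest ratios, the 3 nearest genes by ratio to Nepn, Trh and Spink1, and members of counts of 5 or fewer. Cited1 and Egfl7, chromosomal neighbours, promoter motifs and the second Spink3 probe were chosen after values were seen. No p-value is given, since 1 pool per genotype allows no test. The steps were tested on simulated dye-swapped arrays. Noto, Lefty1, Nkx2-2 and Alb had no matching probe and were not analysed here.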

Additional observations from a re-analysis of the deposited data

How the results depend on the processing

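Both pools share every array, and each ratio was taken within an array. With 1 pool per genotype no test over replicate pools was possible, paired or not. Nepn, Trh and Spink1 passed the size rule under no background subtraction, an offset of 16, median centring, the scanner software's ratio, the median over probes, no detection filter, 1.3-fold, and either array alone; at 2-fold Nepn and Trh passed and Spink1 did not. These are not independent checks, since the genes were chosen for these ratios. Passing at 1.3-fold and on either array alone follows from the rule itself, which asks for 1.5-fold on each array. Nepn, Trh and Spink1 have 1 named probe each, which was detected. The median over probes and the lack of a detection filter could therefore not change their values. Over all genes, against 55 higher and 60 lower, the rule called 27 and 16 with median centring, 43 and 38 with no background subtracted, 80 and 91 at an offset of 16, 167 and 190 with the scanner software's ratio, 140 and 196 at 1.3-fold and 20 and 7 at 2-fold. Median centring put 62.8% of calls on the higher side, against 47.8% with loess. On single arrays, where dye effects remain, the counts ran from 93 to 321 higher and from 128 to 467 lower. The cause of these changes was not tested, apart from the thresholds, which change the counts by construction. The median of the 10 genes ran from 0.06 to 0.20 over 8 alternatives. The medians of the endothelial and endoderm regulator lists kept their sign. The visceral endoderm median ran from 0.008 to 0.053, but was -0.005 on array 2 over its 15 detected genes. The medians of the remaining lists crossed 0, within -0.11 to 0.07, so neither their signs nor that of visceral endoderm carry weight. Of 294 values of named genes, 219 differed from the value given by less than the SD of the arrays and 75 by more, and no called gene changed sign. A value from 1 array alone always differs by less than that SD, so those values could only fall among the 219. For genes with 1 detected probe the median over probes could not differ either. The 219 are therefore no measure of stability. Among named genes outside the 10, Sox2, Sox18 and Col26a1 lost their call with median centring, Sox18 also without background subtraction and Col26a1 with the median over probes. Lum and Mnx1 gained a call with an offset of 16 and with the software's ratio, and Amn with the software's ratio. On array 1 alone Lum and Hoxd13 gained one. Low signal limits Ttr, which lies near the negative control spots.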
